A study of Brassica napus with 45 samples.

Results

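A set of 30 Brassica napus genes rose with the hormone abscisic acid (ABA) in 2 wild types. Polyethylene glycol (PEG), an osmotic stress, left their mean log2(value + 1) within a narrow band. The 30 genes were selected on these wild type values themselves, among the 78057 genes listed in both experiments of the study. For each gene the mean of log2(value + 1) over 3 untreated libraries was taken from the mean over 3 treated ones. A gene was kept when its ABA change was at least 1 and its PEG change was smaller than 0.5 in size, in the wild type of the knockout experiment (column name K407) and again in the wild type of the overexpression experiment (column name WT). The wild type ABA and PEG changes are therefore descriptions here, and the 30 are tested only within the mutant genotypes, whose libraries did not choose them. Longer lists chosen in a single wild type are tested in the other experiment.

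The study measured leaf RNA from rapeseed seedlings grown in nutrient solution, in 45 libraries of 15 groups of 3. The knockout experiment held wild type and the knockout line BnNAC038-KO-1. The overexpression experiment held wild type and the lines BnNAC038-OE-1 and BnNAC038-OE-2, called line 1 and line 2 below. Each genotype was untreated, given 50 µM ABA for 3 h, or given 20% PEG for 6 h, so that treatment and time cannot be told apart in any comparison of ABA with PEG. The knockout is a single line, and the promoter that drives the transgene in the overexpression lines is not given in the sources used here. For line 2 a label field on genotype gives another NAC gene number in each library, but its titles give BnNAC038 and were followed. Replicates are called biological in the titles, with no word on whether they were separate plants, so a p-value speaks only of the scatter among the libraries at hand.

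ABA is made by plants that lose water. It binds soluble receptors, which then hold back a group of protein phosphatases, and this frees kinases that activate bZIP transcription factors at ABA response elements of their target genes. PEG outside the roots lowers the water potential, which raises ABA in the plant and also starts responses that do not need ABA, so genes that follow ABA usually follow PEG as well. NAC proteins, to which BnNAC038 belongs, are plant transcription factors, and many of them act in stress and in leaf ageing. The files do not pair the identifiers with gene names, and 0 of the 123214 genes in the reference table at hand matched. The 30 genes are therefore given by identifier, without names, roles or sequences, and no marker list could check the labelled tissue. BnNAC038 itself was not analysed here.

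Of 1514 genes raised by at least 1 with ABA in both wild types, 1194 (78.9%) were also raised by at least 0.5 with PEG in both. The 30 genes were 1.98% of the 1514. Another 12 genes (0.793%) were lowered by at least 0.5 with PEG in both wild types, and in the other 278 (18.4%) the PEG class differed between the wild types. For comparison, 1013 genes were raised by at least 1 with both treatments in both wild types.

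The overexpression experiment was deposited in TPM per transcript and summed to genes. The knockout experiment was deposited per gene in another normalized value, so levels are not compared between the experiments. The lowest correlation across genes between 2 libraries of a group was 0.971 among knockout and 0.978 among overexpression libraries. Read numbers are not in the files used, so depth is unknown. Near-identical copies of a gene in the A and C subgenomes may share reads, which limits every single value below. A set of libraries of the overexpression experiment stands apart on 7 genes that the lines expressed and the wild type lacked. These were picked for at least 5 TPM in every library of the lines. In untreated and PEG-treated wild type they had to be under 0.5 TPM, so low values there follow from the choice. Under ABA they were present in wild type replicates 2 and 3, at a median of 0.513 and 0.416 of the level in the lines. In ABA-treated wild type replicate 1 the median was 0. None of the 30 genes is among these 7. Without both libraries the rule gave 29 genes, of which 24 were among the 30.

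The level of the 30 genes was low to moderate in most groups. In the overexpression experiment the median of the genes' mean levels was 1.91 TPM in untreated wild type, 8.2 TPM with ABA and 2.25 TPM with PEG. The same medians were 2.35, 8.48 and 3.11 TPM in line 1. They were 2.39, 7.61 and 2.97 TPM in line 2. In every genotype the ABA group stood well above the other groups, and the untreated and PEG groups lay close together. On the normalized scale of the knockout experiment the medians were 4.23 untreated, 14.9 with ABA and 4.37 with PEG in wild type. The knockout had 4.2, 12.9 and 3.44 in the same order. Levels of single genes ran from below 1 TPM in 11 of the 30 genes in untreated wild type to a highest mean of 282 TPM.

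**Figure D1:**
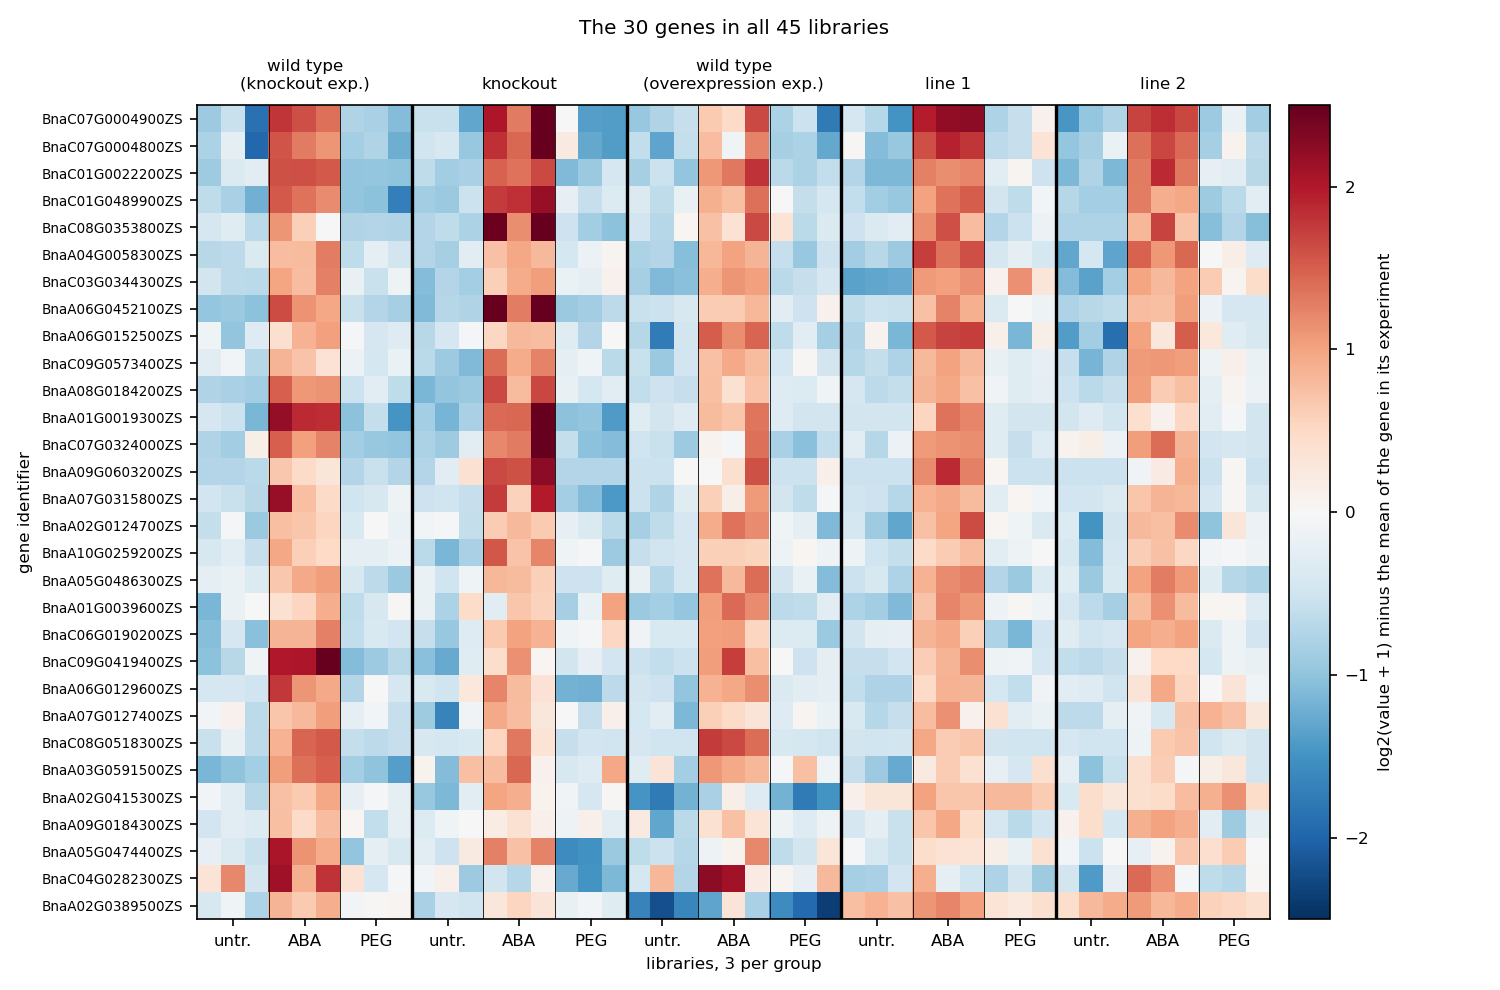
Heat map of the 30 genes (rows, identifiers, ordered by mean ABA change in the knockout and both lines) in all 45 libraries (columns, 3 per group). Colour gives log2(value + 1) minus the mean of the gene over the libraries of its experiment. The ABA columns are red in all 5 genotypes for most rows, while the untreated and PEG columns are blue or pale. The bottom row and the row 4 above it, BnaA02G0389500ZS and BnaA02G0415300ZS, are mostly blue in wild type of the overexpression experiment. In its lines they are mostly red, in untreated libraries too. ABA-treated wild type replicate 2 lies above the mean of the gene in both rows. Untreated line 2 replicate 1 lies below it in BnaA02G0415300ZS.

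ABA raised most of the 30 genes in genotypes that had not chosen them. In the knockout 26 of 30 were called higher (limma, adjusted p under 0.05 over all 42926 genes tested), where 15% of all genes were called higher. In line 1 26 of 30 were called higher, against 15.9% of the 47474 genes tested in that experiment. In line 2 26 of 30 were called higher, against 14.1% of all genes. None of the 30 was called lower with ABA in these genotypes, while 27.8%, 17.9% and 16.2% of all genes were. The median ABA change of the 30 was 1.5 in the knockout and in line 1, and 1.39 in line 2, on the log2(value + 1) scale, while the median of all genes tested was -0.12, -0.05 and -0.07. The genes raised by both treatments had medians of 1.76, 2.09 and 1.90 in the same genotypes. Among the 30, 22 were called higher in all 3 genotypes, 4 in 2 of them and 4 in 1. Of the 39236 genes tested in both experiments, 8.8% were called higher with ABA in all 3. Those called in 1 genotype were BnaA02G0389500ZS, BnaA02G0415300ZS and BnaA05G0474400ZS, in the knockout, and BnaC04G0282300ZS, in line 2. Those called in 2 were BnaA01G0039600ZS, BnaA03G0591500ZS and BnaA09G0184300ZS, in both lines, and BnaA07G0127400ZS, in the knockout and line 1. These 8 are named as the exceptions, after their values were seen. By range, the 3 ABA values lay above the 3 untreated values for 27 of the 30 in the knockout, where 19.1% of all genes did so, for 29 in line 1 (23.1%) and for 26 in line 2 (18.5%).

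The largest mean ABA change over the 3 genotypes was that of BnaC07G0004900ZS, followed by BnaC07G0004800ZS, and these are neighbours in the gene order of chromosome C07. In the knockout BnaC07G0004900ZS had 6.34, 6.34 and 3.35 untreated, 42.6, 25.4 and 88.2 with ABA and 9.91, 3.17 and 3.1 with PEG. In line 1 it had 3.79, 2.87 and 1.27 TPM untreated, 23.7, 28.7 and 28.9 TPM with ABA and 2.73, 3.26 and 5.87 TPM with PEG. In line 2 it had 1.33, 2.25 and 2.77 TPM untreated, 19.5, 21.9 and 19.2 TPM with ABA and 2.39, 4.66 and 2.51 TPM with PEG. In each of these genotypes the ABA values stood apart from all others, and the untreated and PEG values overlapped. The ABA change of BnaC07G0004900ZS was 2.93 (SE 0.44, adjusted p = 7.68e-05) in the knockout, 3.01 (SE 0.33, adjusted p = 1.77e-07) in line 1 and 2.79 (SE 0.33, adjusted p = 6.82e-07) in line 2, by limma. Its PEG change was -0.11 (95% interval -1.04 to 0.82), 0.46 (-0.22 to 1.14) and 0.41 (-0.27 to 1.09) in the same order, none of them called. In wild type the ABA values of BnaC07G0004900ZS were 36.4, 32 and 26.9 in the knockout experiment and 9.07, 7.94 and 19 TPM in the overexpression experiment.

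BnaC07G0004800ZS had the same pattern in all 3 tested genotypes. Its ABA values were 33, 25.1 and 69.8 in the knockout, after 5.81, 6.31 and 3.99 untreated. In line 1 it went from 2.55, 0.622 and 0.8 TPM untreated to 9.53, 12.1 and 11 TPM with ABA. PEG values of 1.2, 1.31 and 3.36 TPM in line 1 fell within and just above the untreated range. The ABA change was 2.66 (SE 0.46, adjusted p = 0.000262) in the knockout, 2.44 (SE 0.34, adjusted p = 6.24e-06) in line 1 and 2.14 (SE 0.34, adjusted p = 4.17e-05) in line 2, by limma. In both neighbours knockout ABA replicate 3 was the highest library by a wide margin. This pair was the only case among the 30 of members within 10 genes of each other, and reads shared between the neighbours could not be examined.

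BnaC01G0022200ZS followed the median profile of the 30 most closely, with a correlation of 0.987 over the 15 group means, each centred within its experiment. Its values were 0.695, 0.444 and 0.497 in untreated knockout, 6.36, 5.77 and 7.27 with ABA and 0.231, 0.385 and 0.965 with PEG. In line 2 they were 0, 0.289 and 0 TPM untreated, 4.33, 6.97 and 4.42 TPM with ABA and 0.891, 0.797 and 0.338 TPM with PEG. Values with ABA were clear of all others in each genotype. In both lines the PEG values also lay above the untreated ones, at a fraction of the ABA level. In line 1 the PEG values were 0.782, 1.27 and 0.52 TPM, against 0.306, 0 and 0 TPM untreated. BnaC07G0004900ZS came next in likeness at 0.966. Across the 30 genes the median profile ran from -0.62 in untreated knockout to 1.07 in ABA-treated wild type of the knockout experiment. These correlations describe genes picked for a common pattern and share all their libraries.

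**Figure D2:**
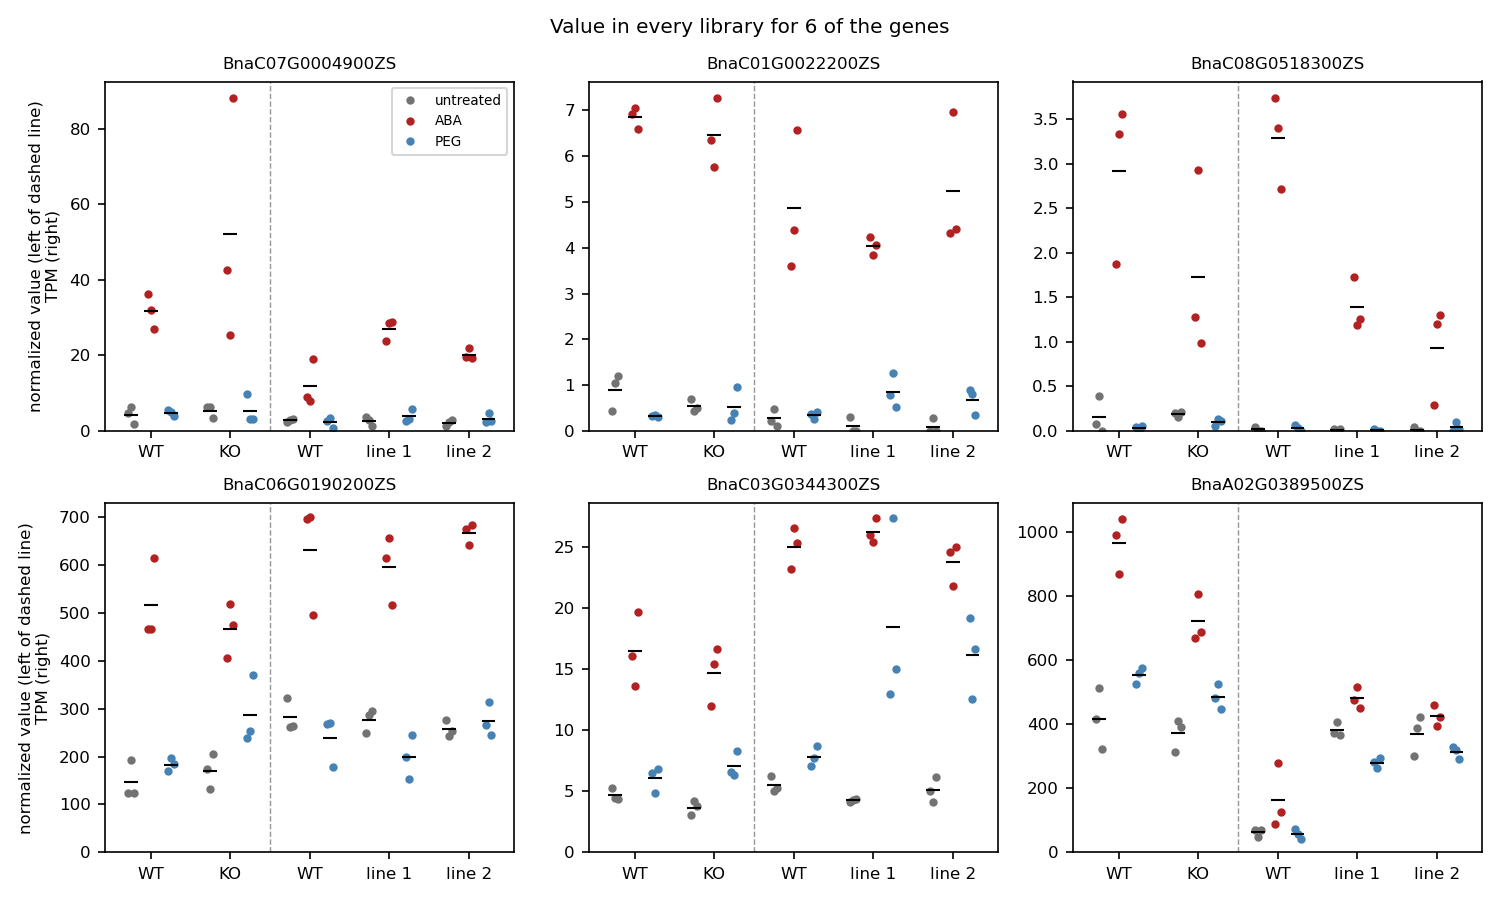
Value in every library for 6 of the 30 genes, on linear axes starting at 0: normalized value in the knockout experiment (left of the dashed line, WT and KO) and TPM in the overexpression experiment (right, WT, line 1 and line 2). Points are libraries (grey untreated, red ABA, blue PEG) and bars are means of 3. BnaC01G0022200ZS shows ABA points apart from all others in all 5 genotypes, BnaC03G0344300ZS has PEG points above the untreated ones in the lines, with 1 at the ABA level in line 1, and BnaA02G0389500ZS has low points in the wild type of the overexpression experiment alone.

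The highest levels belonged to BnaC06G0190200ZS and BnaA02G0389500ZS, with means of 630 and 164 TPM in ABA-treated wild type of the overexpression experiment. BnaC06G0190200ZS had 276, 242 and 254 TPM in untreated line 2, 675, 642 and 684 TPM with ABA and 266, 313 and 245 TPM with PEG. In line 1 it had 249, 287 and 295 TPM untreated, 615, 656 and 516 TPM with ABA and 198, 154 and 245 TPM with PEG. In the knockout it had 173, 133 and 205 untreated, 405, 518 and 474 with ABA and 238, 253 and 370 with PEG. ABA values were above both other groups in these 3 genotypes, while PEG values lay below the untreated range in line 1, above it in the knockout and overlapping it in line 2. The limma ABA change was 1.46 (SE 0.21, adjusted p = 6.76e-05), 1.1 (SE 0.17, adjusted p = 2.81e-05) and 1.37 (SE 0.17, adjusted p = 1.87e-06) in the knockout, line 1 and line 2. Its PEG change was called higher in the knockout (0.74, SE 0.21, adjusted p = 0.00808), lower in line 1 (-0.50, SE 0.17, adjusted p = 0.0143) and not called in line 2 (0.09, 95% interval -0.27 to 0.44).

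PEG moved far fewer of the 30 genes than ABA, and in the lines mostly upward. In the knockout 7 were called higher and 4 lower with PEG, where 35.3% of all genes were called higher and 21.8% lower. In line 1 9 were called higher and 1 lower, against 41.9% and 26.2% of all genes. In line 2 12 were called higher and none lower, against 38.7% and 26.3%. In either direction PEG was called for 11, 10 and 12 of the 30, while 57.1%, 68.1% and 65% of all genes were called. The median PEG change was 0.03 in the knockout and 0.36 and 0.39 in lines 1 and 2, beside medians of 0.13, 0.19 and 0.14 over all genes tested and of 2.03, 2.90 and 2.67 over genes raised by both treatments. The 95% interval of the PEG change lay within 1 of zero for 15 of the 30 genes in the knockout, and for 19 and 17 in lines 1 and 2. It lay within 0.5 of zero for 3, 2 and 2, and for the other genes the interval reached past the limit of the rule. The number of PEG calls rested on single libraries: in the knockout it fell from 11 to 7 and 6 without untreated replicates 1 and 2, and to 5 and 6 without PEG replicates 1 and 2, and in line 1 from 10 to 6 without untreated replicate 3.

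**Figure D3:**
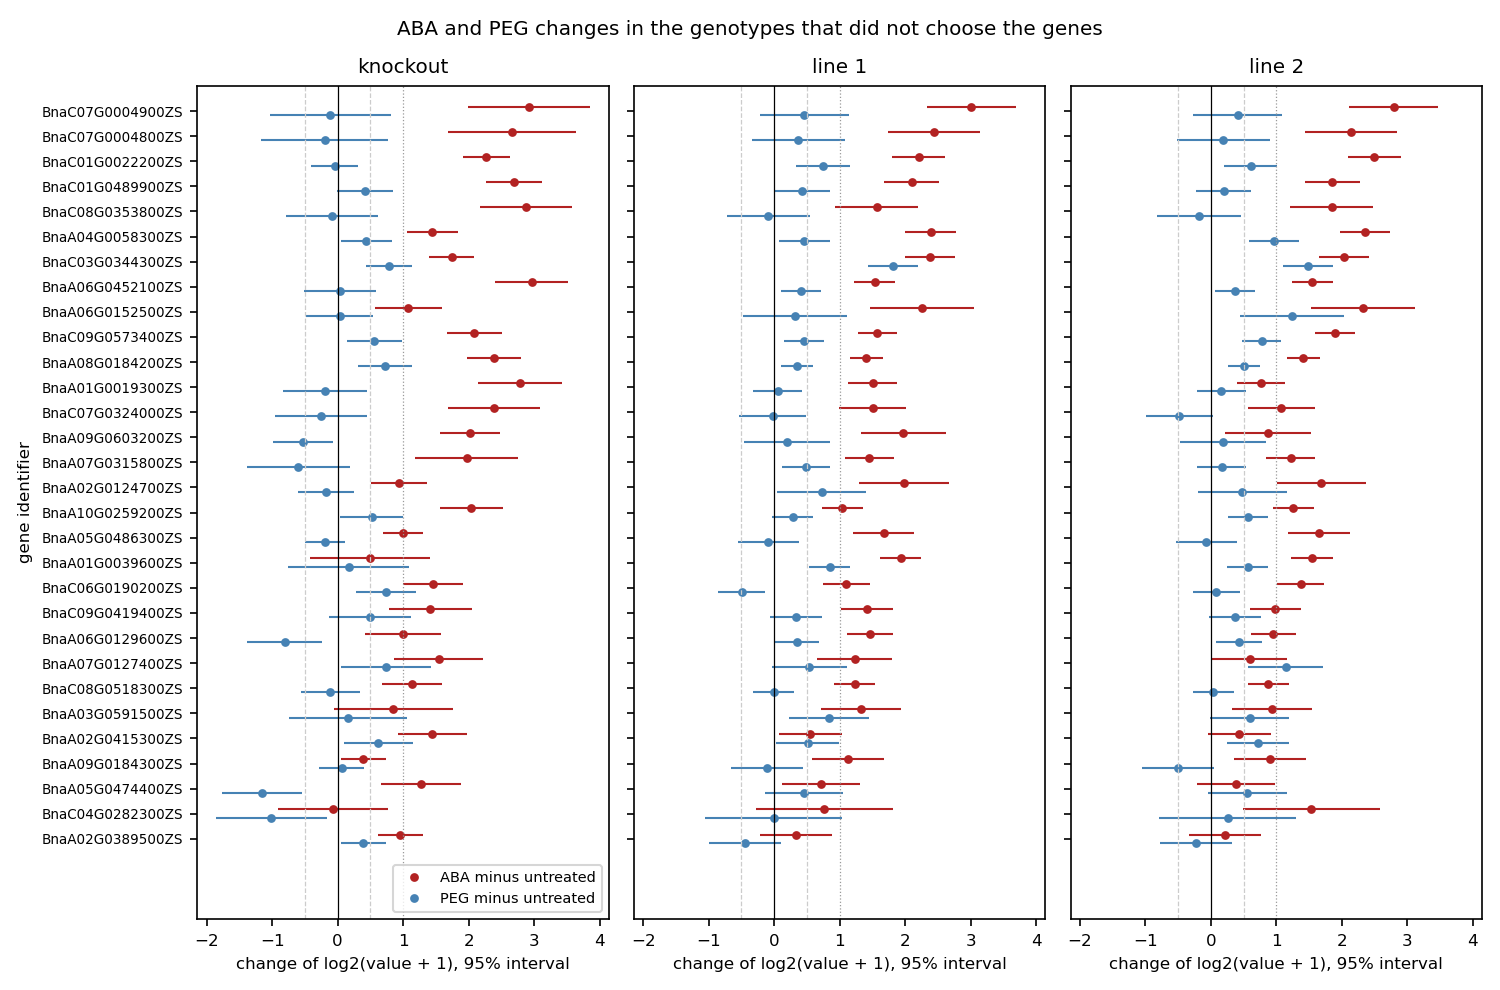
Change with ABA (red) and PEG (blue) against untreated libraries in the knockout, line 1 and line 2, as limma estimates of log2(value + 1) with 95% intervals, for the 30 genes ordered by mean ABA change. Dashed lines mark 0.5 either side of zero and the dotted line marks 1. Red points lie near or right of 1 for most genes, with a median of 1.5, 1.5 and 1.39, and blue points gather nearer zero, with BnaC03G0344300ZS reaching 1.82 in line 1.

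A pair of genes each from the A and C subgenomes, BnaA04G0058300ZS, BnaA08G0184200ZS, BnaC03G0344300ZS and BnaC09G0573400ZS were called higher with PEG in all 3 genotypes. These are 4 of the 30, where 25.8% of the genes tested in both experiments were called so. They are named after their values were seen, apart from BnaC03G0344300ZS and BnaC09G0573400ZS. BnaC03G0344300ZS had the largest mean PEG change of the 30, 1.36. It had 4.1, 4.27 and 4.4 TPM in untreated line 1, 26, 25.4 and 27.4 TPM with ABA and 13, 27.4 and 15 TPM with PEG. In line 2 it had 5.06, 4.12 and 6.16 TPM untreated, 24.6, 21.8 and 25 TPM with ABA and 19.2, 12.6 and 16.7 TPM with PEG. PEG values were above all untreated values in both lines, and 1 of them reached the ABA range in line 1. In wild type of the overexpression experiment the PEG values were 7.1, 7.72 and 8.72 TPM, just above 6.25, 5.03 and 5.29 TPM untreated. The limma PEG change of BnaC03G0344300ZS was 1.82 (SE 0.18, adjusted p = 1.52e-08) in line 1, 1.48 (SE 0.18, adjusted p = 3.76e-07) in line 2 and 0.79 (SE 0.16, adjusted p = 0.000783) in the knockout. Its ABA level still exceeded its PEG level, by 0.56 (adjusted p = 0.0122) in line 1, 0.55 (adjusted p = 0.0139) in line 2 and 0.95 (adjusted p = 0.000396) in the knockout.

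The 4 genes called lower with PEG in the knockout were BnaA05G0474400ZS, BnaA06G0129600ZS, BnaA09G0603200ZS and BnaC04G0282300ZS, and none of them was called lower in a line. BnaA05G0474400ZS had the lowest PEG change there, with 5.54, 4.46 and 8.16 untreated, 17.7, 12 and 17.6 under ABA and 1.62, 1.73 and 3.11 under PEG. Its 3 groups did not overlap in the knockout, and its PEG change was -1.16. In line 1 the same gene had 3.03, 2.15 and 1.81 TPM untreated, 4.61, 4.31 and 4.3 TPM under ABA and 3.62, 2.67 and 4.43 TPM under PEG, with PEG values overlapping both other groups.

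BnaA07G0127400ZS came second in mean PEG change, at 0.81. In line 2 it had 8.18, 8.1 and 11.3 TPM untreated, 12.5, 9.97 and 22.9 TPM with ABA and 25.4, 22.9 and 16.5 TPM with PEG, so PEG and not ABA stood clear of untreated. Its PEG change there was 1.14 (SE 0.28, limma adjusted p = 0.00101) and its ABA change 0.59 (SE 0.28, adjusted p = 0.112). At the other end BnaC04G0282300ZS and BnaC07G0324000ZS had mean PEG changes of -0.25 each. BnaC07G0324000ZS had no PEG call in any genotype, and its ABA change was called higher in all 3, at 2.38 in the knockout (adjusted p = 4.04e-05), 1.5 in line 1 (adjusted p = 4.74e-05) and 1.08 in line 2 (adjusted p = 0.00184). In all, 11 of the 30 had no PEG call in any of the 3 genotypes, where 13.3% of the genes tested in both experiments had none. With PEG 7 were called higher in both lines (38.3% of those genes), and 3 of these 7 (12.4%), BnaA01G0039600ZS, BnaA06G0452100ZS and BnaC01G0022200ZS, were not called higher in the knockout. Another 2, BnaA06G0129600ZS and BnaC06G0190200ZS, were called in opposite directions in different genotypes, where 3.67% of those genes were. The first of the pair is named after its values were seen.

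Set directly against each other, ABA gave higher values than PEG for most of the 30. This contrast does not use the untreated libraries, which the ABA and PEG contrasts share. In the knockout 25 of 30 were called higher with ABA than with PEG, where 8.85% of all genes were. In line 1 26 were, against 21.2% of all genes, and in line 2 24 were, against 21%. None of the 30 was called higher with PEG than with ABA, as 36.1%, 41% and 38.1% of all genes were. The ABA values lay wholly above the PEG values for 28 of the 30 in the knockout (9.53% of all genes) and for 24 in each line (22% of all genes in line 1 and 24.4% in line 2). Among the genes raised by both treatments, 109 of 1013 were called higher with ABA than with PEG in the knockout and 343 lower. In 21 of the 30, ABA was called above PEG and above untreated in all 3 genotypes, where 1.03% of the genes tested in both experiments were. No PEG call stood beside this pattern in 10 of the 21, a combination found in 0.184% of those genes. A missing call need not mean no change in a low gene, since log2(value + 1) understates its changes. As an example picked after its values were seen, BnaC09G0419400ZS, one of the 10, had 0.165, 0.442 and 0.372 TPM with PEG in line 2. Untreated it had 0.0275, 0 and 0.0512 TPM there. Its PEG values also lay above the untreated ones in line 1, and overlapped them in the knockout.

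The smallest mean ABA changes belonged to BnaA02G0389500ZS (0.50) and BnaC04G0282300ZS (0.74). In untreated wild type of the knockout experiment BnaA02G0389500ZS had 417, 512 and 323, and it had 990, 869 and 1040 with ABA. In the knockout it had untreated values of 313, 410 and 392, with 668, 806 and 689 with ABA and 483, 526 and 448 with PEG. ABA-treated values were above both other groups in that experiment, and the limma ABA change in the knockout was 0.96 (SE 0.16, adjusted p = 0.000198). In wild type of the overexpression experiment the same gene had 68.7, 47.4 and 70.5 TPM untreated, 87.8, 278 and 126 TPM with ABA and 73.3, 56.8 and 42.2 TPM with PEG. In untreated line 1 it had 373, 406 and 367 TPM, and in untreated line 2 300, 387 and 422 TPM. With ABA these became 475, 516 and 450 TPM in line 1 and 461, 393 and 421 TPM in line 2. The untreated lines thus exceeded every wild type library of their experiment, and the ABA change was not called in line 1 (0.33, 95% interval -0.22 to 0.87) or line 2 (0.21, -0.33 to 0.76).

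BnaA02G0415300ZS, further along chromosome A02, showed the same split. It had 0.217, 0 and 0.498 TPM in untreated wild type of the overexpression experiment, 0.926, 2.77 and 1.7 TPM with ABA, and 2.7, 3.21 and 3.21 TPM in untreated line 1. It is named for having, after BnaA02G0389500ZS, the lowest correlation with the median profile, 0.525 against 0.430. These were the 2 genes of the 30 whose untreated level was at least 1 higher in both lines than in wild type, on the log2(value + 1) scale. Between and including them, 18 of 109 tested genes of A02 (16.5%) were at least 1 higher in both untreated lines, compared with 0.956% of all tested genes. The 2 genes set the ends of this stretch and are counted among the 18, so the share is raised by the choice. Over the stretch the smaller of the 2 untreated line differences had a median of 0.207. In both genes ABA-treated wild type replicates 2 and 3, the libraries that carried the line-expressed genes, were higher than replicate 1, and with replicate 1 alone the ABA change was 0.51 for BnaA02G0389500ZS and 0.66 for BnaA02G0415300ZS, under the limit of the rule. The part of these libraries in the wild type ABA change of the A02 genes was not tested.

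BnaC04G0282300ZS varied more between libraries than any other of the 30 in untreated and ABA-treated wild type of the overexpression experiment, with SDs of 0.83 and 1.13 on the log2(value + 1) scale. Its ABA values there were 14.7, 13.2 and 2.84 TPM after 1.46, 4.87 and 0.989 TPM untreated, and the groups overlapped. In line 2 it had 1.42, 0.246 and 1.89 TPM untreated and 7.85, 6.35 and 2.24 TPM with ABA. In the knockout it had 5.73, 6.7 and 2.73 untreated and 4.1, 3.29 and 6.62 with ABA, which overlapped throughout. The limma ABA change was -0.07 (95% interval -0.92 to 0.77) in the knockout, 0.77 (-0.28 to 1.81) in line 1 and 1.53 (SE 0.50, adjusted p = 0.0241) in line 2.

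No difference between the lines in the ABA change of the 30 genes was called. None of the 30 was called in the difference of the ABA change between line 2 and line 1 by limma, with 3 at an unadjusted p under 0.05, and 0.00211% of all genes (1 gene) were called. The lowest difference, line 2 minus line 1, was that of BnaA09G0603200ZS at -1.10 (95% interval -2.03 to -0.18), followed by BnaA01G0019300ZS at -0.74 (-1.26 to -0.21). The largest were 0.77 (-0.71 to 2.24) for BnaC04G0282300ZS and 0.32 (-0.11 to 0.75) for BnaC09G0573400ZS. BnaA09G0603200ZS was at 0 TPM in all untreated libraries of both lines and reached 2.29, 4.28 and 2.47 TPM with ABA in line 1 and 0.354, 0.661 and 1.72 TPM in line 2. BnaA01G0019300ZS was at 0 TPM in untreated line 1 and had 1, 2.54 and 2.22 TPM with ABA there, against 0.843, 0.49 and 0.963 TPM in line 2. In both genes the line 2 values were all below the median of line 1.

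Against wild type, the ABA change of the 30 genes in the mutants is described only, since wild type chose them. The knockout minus wild type difference had a median of 0.12 and ran from -1.45 (BnaA03G0591500ZS) and -1.40 (BnaC09G0419400ZS) to 1.08 (BnaC09G0573400ZS) and 1.84 (BnaC08G0353800ZS). BnaC08G0353800ZS went from 0.224, 0.306 and 0.174 untreated to 10.1, 3.5 and 13.9 with ABA in the knockout, and from 0.506, 0.629 and 0.275 to 3.35, 2.05 and 1.04 in wild type, so every knockout value with ABA was above the wild type ones. BnaC09G0419400ZS had ABA values of 3.85, 6.88 and 2.68 in the knockout and 13.2, 13.4 and 20.8 in wild type, with the 2 groups apart. BnaC09G0573400ZS had 10.2, 7.15 and 9.14 with ABA in the knockout, above 6.75, 6.02 and 4.5 in wild type. In BnaA03G0591500ZS the untreated knockout values were 32.2, 13.8 and 51.6 and those of wild type 13.2, 14.5 and 16.4, so that the lower ABA change went with a higher and more scattered start. The median differences of line 1 and line 2 from wild type were 0.09 and -0.04.

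A test of the mutants against wild type was possible for genes that the other experiment's wild type alone had chosen. The rule was met by 331 genes in wild type of the knockout experiment and by 408 in wild type of the overexpression experiment, of which 398 were listed in both experiments. Among the 349 tested genes of the second list, the ABA change differed between knockout and wild type in 24 (limma), with 22 higher and 2 lower in the knockout, where 1.29% and 0.499% of all genes were called. None of these 24 was among the 30. In 20 of the 22 the untreated wild type mean lay above the untreated knockout mean, in 13 at least 2-fold, and in 19 it lay above the wild type mean with ABA. The contrast holds these same means, so a high untreated wild type mean favours a higher call. The 20, 13 and 19 were not set against all genes called higher. Without ABA-treated knockout replicate 2 the count of 24 became 38. Some of the 24 were absent from ABA-treated replicate 1 of the wild type that chose them. BnaA02G0407700ZS had 0, 16.3 and 15.1 TPM there, and BnaA10G0187900ZS 0, 26 and 21.7 TPM. Others were alike in these libraries, such as BnaA05G0081500ZS with 362, 351 and 372 TPM. These genes are named after their values were seen. The part of replicates 2 and 3 in the choice of the list was not tested. Among the 275 tested genes of the first list, line 1 differed from wild type in 0 (limma, with 28 at an unadjusted p under 0.05) and line 2 in 1 (28), where 0.0211% and 0.0316% of all genes were called in either direction.

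That 1 gene, BnaC08G0518300ZS, is one of the 30. It also met the rule in the wild type it was compared with, so its own difference is described with no test, and it is named after its value was seen. It had 0.0488, 0 and 0 TPM in untreated wild type of the overexpression experiment and 3.74, 3.4 and 2.72 TPM with ABA. In line 2 it had 0.0462, 0 and 0 TPM untreated and 0.292, 1.2 and 1.3 TPM with ABA. In line 1 the ABA values were 1.73, 1.19 and 1.26 TPM. Every ABA value of both lines was below every ABA value of wild type, and PEG values were at most 0.0989 TPM in these 3 genotypes. The difference from wild type in ABA change was -1.19 for line 2 and -0.84 for line 1. The count for line 2 was 0 without untreated line 2 replicate 1 or 2, without untreated wild type replicate 1 or 2, and without ABA-treated wild type replicate 2. Without untreated wild type replicate 3 this gene was no longer counted and 1 gene of the list was called higher. In the knockout experiment the gene had 0.0814, 0.39 and 0 in untreated wild type and 1.88, 3.34 and 3.56 with ABA. The 167 listed genes within 100 running numbers of it on C08 summed to 369.5, 472.9 and 33.96 in these untreated libraries. Untreated wild type replicate 3 was thus low in the sum over the stretch, which a few high genes can carry. The part of this stretch in the gene's wild type value was not tested.

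The 2 lists differed in how far they held in the other wild type. Of the 331 genes chosen in wild type of the knockout experiment, 159 (48.0%) reached an ABA change of at least 1 in the other wild type, where 4.13% of all listed genes did, and 125 of these (37.8% of the list, and 3.51% of all listed genes) had a PEG change of 0.5 or more there. The median ABA change of this list in the other wild type was 0.96 and its median PEG change 0.59. By limma 225 of its 275 tested genes (81.8%) were called higher with ABA there, where 16.4% of all genes were. With PEG 186 (67.6%) were called higher and 19 (6.91%) lower, against 39.8% and 22.4% of all genes. The PEG change stayed within 0.5 in 136 of the 331 (41.1%), where 68.5% of all listed genes did. Only 39236 of the 78057 listed genes passed the filter on low values in both experiments. Genes without signal in a wild type count as within 0.5, so the 68.5% is no share of expressed genes. The other shares of all listed genes, here and below, take in such genes too.

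For the 398 genes chosen in wild type of the overexpression experiment the reading was different. In wild type of the knockout experiment 90 of them (22.6%) reached an ABA change of at least 1, where 3.14% of all listed genes did, and 195 (49.0%) had a PEG change of -0.5 or lower, where 14.0% of all listed genes did. The medians were 0.34 for ABA and -0.45 for PEG. By limma 130 of 349 tested genes (37.2%) were called higher with ABA, where 12.7% of all genes were, and with PEG 43 were called higher and 186 lower, against 33.5% and 26.2%. On this list 47 of 408 genes (11.5%) were at least 1 higher untreated in both lines than in wild type. Of all genes of that experiment, silent ones included, 0.45% were, and of the genes tested 0.956%. The list was chosen on a rise from these same untreated wild type libraries. Low values there favour both, so part of this excess follows from the choice. All 7 genes that the lines expressed and wild type lacked are on the list. They were picked for low untreated and PEG values in this wild type, so that choice all but met the PEG limit. The 30 genes are 9.06% of the first list and 7.54% of the second.

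**Figure D4:**
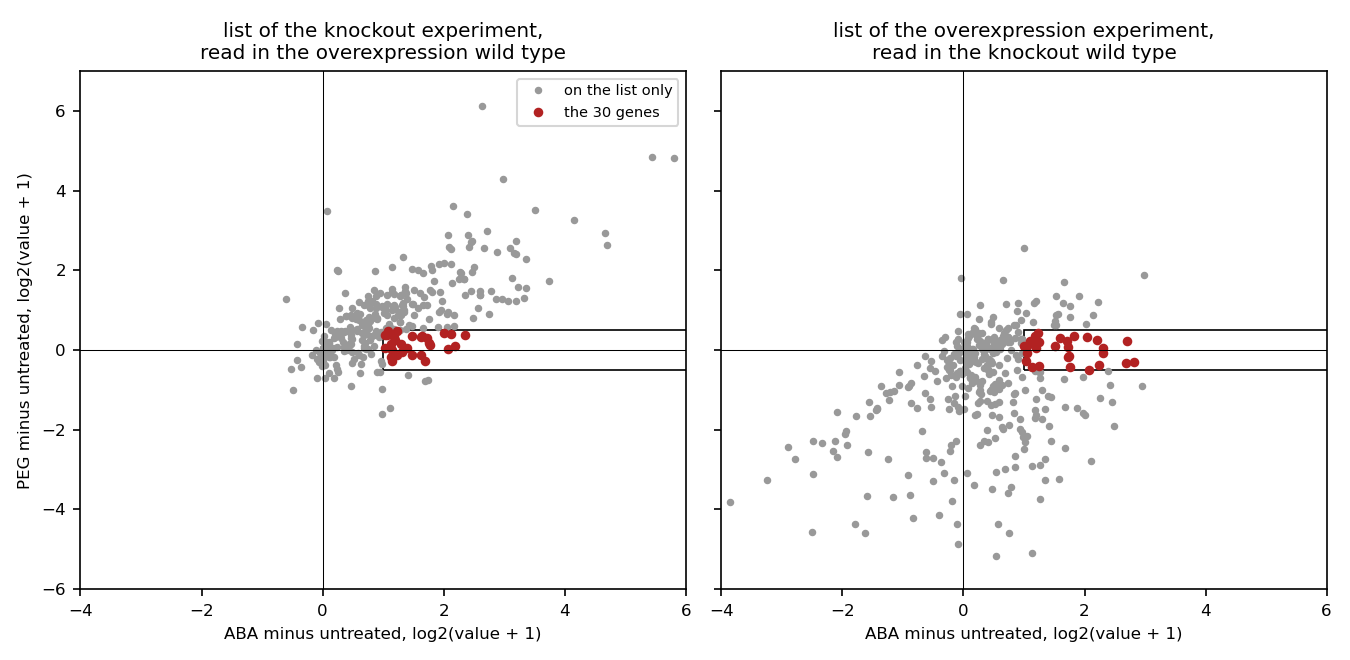
Changes of log2(value + 1) with ABA (horizontal) and PEG (vertical) of the 331 genes chosen in wild type of the knockout experiment, read in the other wild type (left), and of the 398 genes chosen in wild type of the overexpression experiment, read in the wild type of the knockout experiment (right). Red points are the 30 genes on both lists and the box marks the limits of the rule. Grey points extend upward at left, with a median PEG change of 0.59, and downward at right, with a median of -0.45.

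The choice of the 30 depended on single libraries of the wild types. Leaving out each of the 18 wild type libraries in turn gave 25 to 37 genes. Of the 30, 6 were chosen in all 18 settings, BnaC07G0004800ZS and BnaC08G0518300ZS among them, 6 were lost in 1 setting and 18 in more. The lowest number of settings kept was 12, for BnaA07G0127400ZS and another gene. Genes just inside the ABA limit were BnaC09G0573400ZS, whose smaller wild type ABA change was 1.00, and BnaA05G0474400ZS with 1.02. BnaA08G0257200ZS and BnaA04G0254800ZS fell just outside with 0.97 and 0.98. At the PEG limit BnaA07G0127400ZS (0.48) and BnaC01G0022200ZS (0.49 in size) were inside, and BnaC03G0692300ZS (0.51) and BnaA07G0346100ZS (0.52 in size) outside. The rule therefore parts genes that differ by less than their replicate spread. In the wild type groups the median SD of the 30 genes on the log2(value + 1) scale ran from 0.198 to 0.303. The lowest was that of PEG-treated wild type of the knockout experiment, the highest that of ABA-treated wild type of the overexpression experiment. Over all groups the median SD ran from 0.14 in untreated line 1 to 0.42 in the ABA-treated knockout. In every ABA-treated group each of the 3 libraries was the highest for at least 1 of the 30 genes, and ABA-treated wild type replicate 1 of the knockout experiment was the highest for 16 of them.

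The 30 genes lay on 17 of the 19 chromosomes of the species, 18 on the A subgenome (60%) and 12 on the C subgenome (40%). Of the genes that passed the filter on low values in both experiments, 47% were on A and 52.2% on C. All 30 genes passed that filter, which asked for 3 libraries of an experiment with a value of 1 or more, in both experiments. Per transcript, in the overexpression experiment, 2 of the 30 had more than 1 transcript, and BnaA03G0591500ZS was the only one with a second transcript at 1 TPM or more in the ABA-treated lines. Its transcripts averaged 8.52 and 12.1 TPM there, and their mean ABA changes over both lines were 0.99 and 1.12. With PEG the first transcript changed by 1.01 in line 1 and 0.81 in line 2, and the second by 0.45 and 0.32, differences that were not tested.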

How the data were processed

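Leaf RNA was sequenced in 45 libraries, with TRIzol extraction and NEBNext Ultra II libraries per the labels' protocols. The authors deposited the overexpression experiment as TPM per transcript (read from the values, since every library sums to 1000000), summed here to 100919 genes, and the knockout experiment as another normalized signal per gene, whose library sums were 760713 to 842688. The tools kallisto 0.51.1, sleuth 0.30.1, HISAT2 and DESeq2 1.38.3 are listed per the submitters' processing notes. The genome build is not given in the sources used here. Each experiment was tested alone in R 4.3.3 with limma 3.58.1 on log2(value + 1), which understates changes of low genes: genes reaching 1 in 3 or more libraries, all groups in 1 fit, empirical Bayes with a mean trend, and Benjamini-Hochberg adjusted p under 0.05 over all genes tested. The model was tested on simulated data. The planned count test was not needed because the file holds no counts. Depth is unknown, so no counting interval is given. The genes and lists were chosen with earlier results of these data known, and identifiers are named by rank (largest and smallest changes, levels, likeness, nearest to a limit), at most 2 each way, with exceptions stated. Alternatives were another pseudocount, scaling, filter, rule limits, a replicate block and leaving out libraries. Those for the lists in the other wild type, and leaving out ABA-treated wild type replicates 2 and 3 for list tests, were chosen after seeing the data.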

Additional observations from a re-analysis of the deposited data

Results flagged for a closer look

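Of the 349 tested genes chosen by the wild type of the overexpression experiment, 24 differed in ABA change between knockout and wild type (limma). The change was higher in the knockout in 22 of them. The contrast is of the change from untreated to ABA, so untreated libraries enter it too, and it is no difference under ABA alone. In 19 of these 22 the untreated wild type mean exceeded the wild type mean with ABA. A high untreated wild type mean favours such a call by the way the contrast is built. The part of the untreated wild type libraries in these calls was not tested.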

How the results depend on the processing

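The rule gave 30 genes as reported, 55 after quantile normalization (29 of the 30 kept), 6 with a PEG limit of 0.25, 7 with an ABA limit of 1.5 and 25 to 37 without a single wild type library. A pseudocount of 0.1 gave 33 genes, of which 13 were among the 30. The PEG calls among the 30 in the knockout (11) became 6 with no filter and 5 to 9 without a library, those in line 1 (10) became 5 after quantile normalization and 6 to 11 without a library, and those in line 2 (12) 10 to 13. The ABA calls ranged over 26 to 27 in the knockout, 26 in line 1 and 23 to 25 in line 2 without a library, and calls of ABA above PEG over 22 to 27, 24 to 26 and 22 to 24. The 1 call of line 2 against wild type became 0 with a filter of 5, with a pseudocount of 0.1 and without ABA-treated wild type replicates 2 and 3, and was 0 to 1 without a library, as was that of line 1 (1 without untreated wild type replicate 3). The knockout against wild type count of 24 ranged from 17 to 38. Calls of the lists in the other wild type ranged from 211 to 221 (225 with all libraries), 108 to 124 (130), 184 to 201 (205) and 206 to 219 (229). The other settings, 87 in all beside the libraries left out, kept every count within 1.5 times. The cause of these shifts was not tested.

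Same-numbered libraries of different groups showed little joint deviation. In the knockout experiment 11 of 45 pairs correlated above 0.1, with a median of 0.0367 against -0.00744 for different numbers. In the overexpression experiment 12 of 108 did, with a median of -0.0157 against 0.000955. The numbers are used here as names of libraries only, and whether same-numbered libraries shared a harvest was not tested. With the number as a replicate block the line 2 against wild type call became 0, and the ABA calls stayed at 26 in each genotype. Requiring all 3 same-numbered differences to pass the limits left 1 gene of the rule.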
